A study of Mus musculus with 9 samples.

Results

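The proteins of the small subunit of the mitochondrial ribosome were followed at the transcript level in mouse embryonic stem (ES) cells with induced deletion of Zbtb11, a zinc finger protein of the nucleus. Members were the protein-coding genes whose symbol begins with Mrps and a digit (29 genes) together with Dap3 and Ptcd3, which gave 31 of the 37310 gene rows in each count file. All 31 passed the filter on low counts. The 9 libraries, 3 per group, came from ES cells of the E14 parental line grown without feeder cells in serum and LIF. The ethanol control and the knockout group both carried Zbtb11lox/lox alleles and ERt2-Cre, a Cre recombinase activated by 4-hydroxytamoxifen (4OHT), at the Rosa26 locus. The ethanol control received the carrier ethanol, and the knockout group received 250 nM 4OHT. The 4OHT control was Zbtb11WT/WT with a wild-type Rosa26 locus and received 250 nM 4OHT, so both line and drug distinguish it from the ethanol control. Sample names give a time of 72 h for every group. The sources used here do not say how many clones the floxed line comprised or whether each replicate had a culture of its own. The p-values therefore measure only how these libraries vary, which may be technical variation.

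Mitochondrial ribosomes translate the few mRNAs of the mitochondrial genome, which encode core subunits of the respiratory chain and ATP synthase. Their proteins are all encoded in the nucleus and imported. The small subunit binds the mRNA and decodes it, around a 12S ribosomal RNA made inside the organelle. Some of its proteins have homologs in the bacterial ribosome, and others were added during the evolution of mitochondria. The symbols are historical: structures place the products of Mrps18a and Mrps30 in the large subunit, and that of Mrps36 belongs to the 2-oxoglutarate dehydrogenase complex. These 3 genes were kept as members by the naming rule and are described apart.

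Gene counts per library ranged from 16909139 to 23544893, and the members held 0.131% to 0.151% of them. The 8 ES cell markers examined summed to 3758 to 4660 CPM (counts scaled to library size with TMM factors) across libraries, against 13.9 to 18.5 CPM for 5 fibroblast markers, 3.50 to 9.62 for 5 endoderm, 4.46 to 10.4 for 4 mesoderm and 137 to 165 for 3 neural markers (Neurod1, Pax6 and Tubb3). The endoderm sum was 7.74 to 9.62 CPM in the knockout group and 3.50 to 5.68 CPM over the 6 control libraries, with Gata4, Gata6 and Sox17 called higher in the knockout group against both controls. Of the other marker lists, the neural gene Neurod1 was also higher against both controls (log2 fold change 0.56, adjusted p = 0.0088, and 1.87, adjusted p = 9.0e-07), and the ES cell gene Esrrb was lower against both (-0.24, adjusted p = 0.031, and -0.26, adjusted p = 0.012). The rest of the neural list went the other way from Neurod1. Pax6 stood at -0.11 (edgeR adjusted p = 0.55) against the EtOH control and -0.33 (0.049) against the 4OHT control. Tubb3 stood at -0.07 (0.42) and -0.16 (0.046) in the same order. The part of all these markers in the results below was not tested. The share of reads assigned to no feature was 32.7% to 33.8% in the knockout group and 26.4% to 28.7% in the controls, and its part in the results was not tested either. Zbtb11 itself averaged 355 ± 6.69 CPM (SD, n = 3) with ethanol, 377 ± 8.46 CPM in the libraries labelled KO and 367 ± 9.30 CPM in the wild-type line. The count was not lower in the libraries labelled KO, and the labels do not say which exons are deleted, so it checks neither the label nor the loss of protein. The group is called KO-labelled, and the ethanol control EtOH control, from here on.

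Against the EtOH control, 14 of the 31 members fell in the KO-labelled libraries and 1, Mrps23, rose, at an adjusted p (Benjamini-Hochberg over 16224 genes, edgeR) under 0.05. Those 14 are 45.2% of the members, where 14.2% of all genes tested fell and 13.0% rose (27.2% called in either direction). The median log2 fold change was -0.17 over the members and 0.01 over all genes tested. Most of the falls were small, and 2 members fell by more than 1 log2 unit (Mrps31 and Mrps18c), against 1.16% of all genes. With library totals as the only scaling, which moved the median of all genes to 0.08, 9 members fell and 2 rose, where 9.42% of all genes fell and 18.7% rose, and the members' median was -0.10. The replicate block gave 18 falls and 2 rises, with 22.3% of all genes lower and 20.4% higher. In bulk RNA a lower level in every cell and fewer cells with the transcript cannot be told apart. The members called lower both here and in all 16 alternatives were the 9 genes Mrps5, Mrps10, Mrps12, Mrps18c, Mrps24, Mrps27, Mrps31, Mrps34 and Mrps35.

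Against the 4OHT control, 9 members fell and 4 rose, where 19.8% of all genes fell and 19.1% rose (39.0% called in either direction). The 9 falls are 29.0% of the members. The median log2 fold change of the members was -0.03 (0.05 with library totals), against 0.02 over all genes tested. Mrps31 and Mrps18c again fell by more than 1 log2 unit, as did 2.88% of all genes. With library totals, which moved the median of all genes to 0.10, 7 members fell and 7 rose, where 14.4% of all genes fell and 26.0% rose. The replicate block gave 11 falls and 4 rises, with 25.9% of all genes lower and 25.5% higher. Both comparisons use the same KO-labelled libraries, so their values are given side by side and not as separate evidence. In the plot of fold changes, a few members stand far to the left of a cluster near 0.

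**Figure D1:**
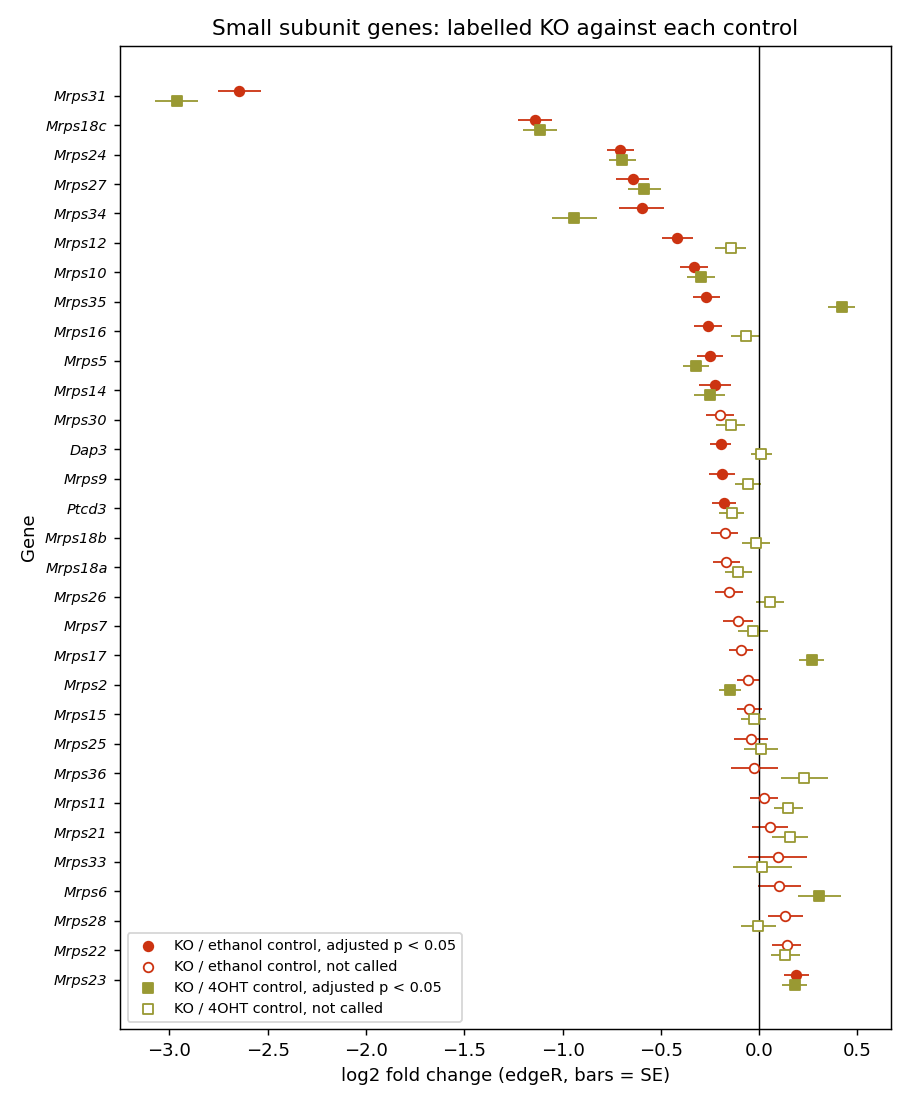
Log2 fold change (x axis) of each of the 31 members (y axis, ordered by the change against the EtOH control) in the KO-labelled libraries, against the EtOH control (circles) and the 4OHT control (squares). Bars are the SE from the edgeR fit of all 9 libraries, 3 per group. Filled symbols have an adjusted p under 0.05; Mrps31 lies at -2.64 and -2.96, and Mrps35 is lower against one control and higher against the other.

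Among the mitochondria-specific proteins, 6 of 12 fell against the EtOH control and 1 rose (median log2 fold change -0.18), and 3 fell and 2 rose against the 4OHT control (median 0.01). The falls are 50% and 25% of the list, where 14.2% and 19.8% of all genes fell and 13.0% and 19.1% rose. With library totals the counts were 4 and 2, then 3 and 3 (medians -0.11 and 0.094). The replicate block gave 8 and 2, then 4 and 2. Mrps31 (ENSMUSG00000031533.3), which encodes a protein of the head of the subunit, showed the steepest fall of all members. Its level was 44.5, 44.9 and 40.9 CPM in the EtOH control, 6.23, 8.60 and 6.03 CPM in the KO-labelled libraries, and 52.8, 59.0 and 50.9 CPM in the 4OHT control. Every KO-labelled library was far below every control library. The KO-labelled level was 16.0% of the EtOH control (log2 fold change -2.64, SE 0.11, edgeR adjusted p = 5.7e-11) and 12.8% of the 4OHT control (-2.96, SE 0.11, adjusted p = 9.9e-12).

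Mrps27 (ENSMUSG00000041632.5), a protein with pentatricopeptide repeats, a fold that binds RNA, had 54.8, 60.8 and 61.3 CPM in the EtOH control, 34.0, 41.0 and 38.3 CPM in the KO-labelled libraries and 50.2, 61.2 and 58.7 CPM in the 4OHT control. The KO-labelled libraries did not overlap either control, and a noncoding transcript on the other strand overlaps the exons. Its log2 fold change was -0.64 against the EtOH control (SE 0.08, adjusted p = 4.6e-05) and -0.59 against the 4OHT control (SE 0.08, adjusted p = 5.6e-05).

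Mrps34 (ENSMUSG00000038880.7), needed for stability of the small subunit, was among the lower members, with 9.82, 12.2 and 10.1 CPM in the EtOH control, 6.995, 7.435 and 6.857 CPM in the KO-labelled libraries and 12.6, 15.0 and 13.4 CPM in the 4OHT control. The 3 groups did not overlap, and the KO-labelled group was lowest. The log2 fold change was -0.60 (SE 0.12, adjusted p = 0.0014) against the EtOH control and -0.94 (SE 0.11, adjusted p = 1.0e-05) against the 4OHT control. In the GENCODE M21 annotation its exons overlap those of Nme3 on the same strand and of Mapk8ip3 on the other strand, and the reads of overlapping genes may not have been told apart. Nme3 had 0.445, 0.205 and 0.241 CPM in the EtOH control, KO-labelled and 4OHT control groups. Mapk8ip3, a scaffold of kinase signalling, moved the other way, with a rise of 0.44 on the log2 scale against each control.

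Mrps35 (ENSMUSG00000040112.7), a protein of the head, went opposite ways against the 2 controls. Its level was 62.7, 67.0 and 63.2 CPM in the EtOH control, 52.1, 56.6 and 51.3 CPM in the KO-labelled libraries and 35.9, 42.0 and 41.8 CPM in the 4OHT control. The 3 groups were separate, with the KO-labelled libraries between the controls. It fell by 0.27 against the EtOH control (SE 0.07, adjusted p = 0.0084) and rose by 0.42 against the 4OHT control (SE 0.07, adjusted p = 0.00022). Mrps23 (ENSMUSG00000023723.10), a mitochondria-specific protein, was the one member called higher against both controls. It had 53.1, 54.6 and 53.9 CPM in the EtOH control, 61.2, 63.6 and 59.5 CPM in the KO-labelled libraries and 49.3, 56.1 and 57.3 CPM in the 4OHT control. The KO-labelled libraries were above all 6 control libraries, by little (log2 fold change 0.19, SE 0.06, adjusted p = 0.035 against the EtOH control, and 0.18, SE 0.06, adjusted p = 0.032 against the 4OHT control). The call against the EtOH control ended in 7 of 16 alternatives, whose adjusted p ranged from 0.0024 to 0.13: DESeq2 (0.068), no filter (0.054), without EtOH control replicate 1 (0.10), 2 (0.084) or 3 (0.083) and without KO-labelled replicate 1 (0.093) or 2 (0.13). That against the 4OHT control ended in 6 (range 0.0026 to 0.17): DESeq2 (0.069), no filter (0.054), the fit of the 6 libraries compared (0.060), without KO-labelled replicate 1 (0.073) or 2 (0.11) and without 4OHT control replicate 1 (0.17).

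Dap3 (ENSMUSG00000068921.7), a GTP-binding protein of the head also known for a role in cell death, had 107, 104 and 111 CPM in the EtOH control, 89.6, 98.4 and 93.1 CPM in the KO-labelled libraries and 90.6, 93.3 and 94.9 CPM in the 4OHT control. The KO-labelled libraries lay below the EtOH control and overlapped the 4OHT control. Ash1l, a histone methyltransferase gene that overlaps its exons on the other strand, rose by 0.19 and 0.21 on the log2 scale against the EtOH and 4OHT controls. Dap3 fell against the EtOH control (log2 fold change -0.19, SE 0.05, adjusted p = 0.013) and stood at 0.012 on the log2 scale against the 4OHT control (adjusted p = 0.88; -0.034 without KO-labelled replicate 2 and -0.0081 without 4OHT control replicate 1). The call ended with library totals (0.090), without EtOH control replicate 3 (0.059) and without KO-labelled replicate 1 (0.057), over a range of 0.00035 to 0.090. Ptcd3 (ENSMUSG00000063884.4), a pentatricopeptide repeat protein at the mRNA entrance, was the most abundant member by CPM. It had 183, 205 and 189 CPM in the EtOH control, 160, 181 and 169 CPM in the KO-labelled libraries and 181, 199 and 181 CPM in the 4OHT control. The KO-labelled libraries were below the EtOH control and met the lower end of the 4OHT control. Its log2 fold change was -0.18 (SE 0.06, adjusted p = 0.042) against the EtOH control and -0.14 (SE 0.06, adjusted p = 0.086) against the 4OHT control. The former call ended with library totals (0.17), a filter at 1 CPM (0.0502), without EtOH control replicate 2 (0.19) or 3 (0.067) and without KO-labelled replicate 1 (0.15) or 3 (0.078), over a range of 0.00014 to 0.19. Against the 4OHT control Ptcd3 was called with the replicate block (0.0014) and without KO-labelled replicate 2 (0.030), over a range of 0.0014 to 0.44. The plot of single libraries shows that for Dap3 and Ptcd3 the KO-labelled points lie just below those of the EtOH control and overlap those of the 4OHT control.

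**Figure D2:**
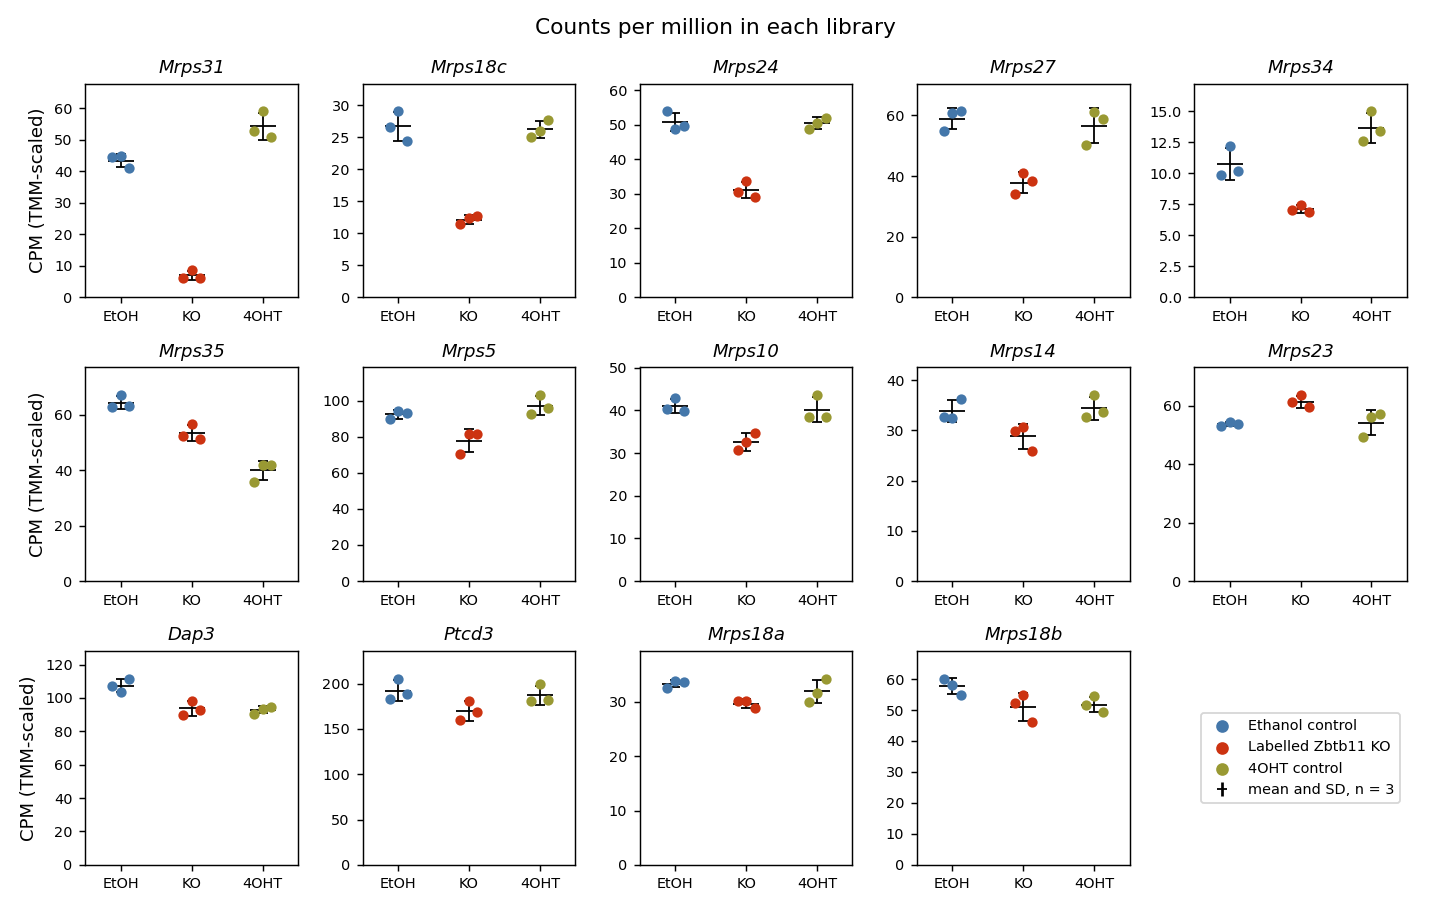
TMM-scaled CPM (y axis, from 0) of 14 members in each of the 9 libraries, by group (x axis), with the mean and SD of 3 libraries in black. The KO-labelled points of Mrps31, Mrps18c, Mrps24, Mrps27 and Mrps34 lie below all control points, while those of Mrps35 lie between the 2 controls.

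Among the 16 homologs of bacterial ribosomal proteins, 8 fell against the EtOH control and none rose (median log2 fold change -0.15). At an unadjusted p under 0.05 the counts by edgeR were also 8 and 0, as were those by DESeq2 at an adjusted p under 0.05. Against the 4OHT control 6 fell and 2 rose (median -0.06). The falls are 50% and 37.5% of the homologs, where 14.2% and 19.8% of all genes fell and 13.0% and 19.1% rose. The replicate block gave 8 and 0, then 6 and 2. With library totals 5 fell and 0 rose against the EtOH control (median -0.08), and 4 fell and 3 rose against the 4OHT control (median 0.020, the sign turned). The homolog with the largest fall was Mrps18c (ENSMUSG00000016833.8), a protein of the S18 family. It had 26.6, 29.1 and 24.5 CPM in the EtOH control, 11.4, 12.3 and 12.7 CPM in the KO-labelled libraries and 25.1, 25.9 and 27.7 CPM in the 4OHT control. All KO-labelled libraries were below all control libraries, and the 2 controls overlapped. The KO-labelled level was 45.3% of the EtOH control (log2 fold change -1.14, SE 0.09, adjusted p = 8.1e-08) and 46.2% of the 4OHT control (-1.11, SE 0.09, adjusted p = 7.4e-08). A processed pseudogene holds 137 bases of near-identical sequence, and a transcript model on the same strand overlaps the gene, so its count carries that uncertainty.

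Mrps24 (ENSMUSG00000020477.4), the counterpart of bacterial S3 in the head, had 53.9, 48.8 and 49.8 CPM in the EtOH control, 30.6, 33.6 and 29.2 CPM in the KO-labelled libraries and 48.8, 50.6 and 52.1 CPM in the 4OHT control. Here too the KO-labelled libraries stood below both controls, which overlapped each other. Its log2 fold change was -0.71 (SE 0.07, adjusted p = 1.6e-06) against the EtOH control and -0.70 (SE 0.07, adjusted p = 9.9e-07) against the 4OHT control. Its exons share bases with Urgcp on the same strand, a gene at 21.9, 24.7 and 17.3 CPM in the EtOH control, KO-labelled and 4OHT control groups.

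Smaller falls were called against both controls for 3 homologs. Mrps5 (ENSMUSG00000027374.6) had 89.6, 94.3 and 93.3 CPM in the EtOH control, 70.4, 81.3 and 81.5 CPM in the KO-labelled libraries and 92.4, 103 and 96.0 CPM in the 4OHT control (log2 fold change -0.25, SE 0.06, adjusted p = 0.0087, and -0.32, SE 0.06, adjusted p = 0.00093). Mrps10 (ENSMUSG00000034729.10) had 40.4, 42.9 and 39.8 CPM in the EtOH control, 30.6, 32.6 and 34.8 CPM in the KO-labelled libraries and 38.5, 43.5 and 38.4 CPM in the 4OHT control (-0.33, SE 0.07, adjusted p = 0.0030, and -0.30, SE 0.07, adjusted p = 0.0041). For both genes the KO-labelled libraries were the lowest and the controls overlapped, and both have a near-identical pseudogene copy that could share reads. Mrps14 (ENSMUSG00000058267.7) had 32.6, 32.4 and 36.3 CPM in the EtOH control, 29.9, 30.6 and 26.0 CPM in the KO-labelled libraries and 32.6, 37.0 and 33.6 CPM in the 4OHT control (-0.22, SE 0.08, adjusted p = 0.048, and -0.25, SE 0.08, adjusted p = 0.021). Its KO-labelled libraries were the lowest by a narrow margin. The call of Mrps14 against the EtOH control ended in 8 of 16 alternatives (adjusted p from 0.0091 to 0.185), namely library totals (0.185), a filter at 1 CPM (0.053), the fit of the 6 libraries compared (0.0502), without EtOH control replicate 1 (0.057), 2 (0.065) or 3 (0.17) and without KO-labelled replicate 1 (0.062) or 3 (0.16). That against the 4OHT control ended with library totals (0.12), without KO-labelled replicate 3 (0.084) and without 4OHT control replicate 2 (0.088), over a range of 0.0026 to 0.12.

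A further 3 homologs were called against the EtOH control alone. Mrps12, the counterpart of bacterial S12 at the decoding centre, went from 35.4 ± 0.999 to 26.5 ± 2.49 CPM (SD, n = 3; log2 fold change -0.42, adjusted p = 0.0012) and was at 29.3 ± 2.06 CPM in the 4OHT control (-0.15, adjusted p = 0.16, or 0.036 without KO-labelled replicate 2, over a range of 0.036 to 0.57). Mrps16 went from 37.1 ± 1.38 to 30.9 ± 1.95 CPM (-0.26, adjusted p = 0.012, or 0.060 with library totals, over a range of 0.00080 to 0.060) and was at 32.4 ± 1.96 CPM in the 4OHT control (-0.07, adjusted p = 0.47; 0.014 with library totals). Mrps9 went from 54.7 ± 3.38 to 48.0 ± 1.60 CPM (-0.19, adjusted p = 0.038) and was at 49.9 ± 2.52 CPM in the 4OHT control (-0.06, adjusted p = 0.51; 0.025 with library totals). The call of Mrps9 ended with library totals (0.16), without EtOH control replicate 2 (0.15) or 3 (0.11) and without KO-labelled replicate 1 (0.12), over a range of 0.0023 to 0.16. For these 3 genes the 4OHT control mean lay between the other means. Mrps16 has pseudogene copies that could share its reads.

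Another 3 homologs were called against the 4OHT control alone. Mrps17 rose from 44.6 ± 1.46 CPM in the 4OHT control to 53.8 ± 3.73 CPM (log2 fold change 0.27, adjusted p = 0.0032), with 57.3 ± 0.942 CPM in the EtOH control (-0.09, adjusted p = 0.29). Mrps6 rose from 12.7 ± 1.03 to 15.6 ± 1.58 CPM (0.31, adjusted p = 0.038), with 14.5 ± 1.67 CPM in the EtOH control (0.10, adjusted p = 0.52). Slc5a3, a sodium-coupled inositol transporter whose exons overlap those of Mrps6 on the same strand, rose by 0.67 against the EtOH control and by 0.66 against the 4OHT control. The call of Mrps6 ended with DESeq2 (0.059), without KO-labelled replicate 1 (0.12) or 2 (0.13) and, among 4OHT controls, without replicate 1 (0.13) or 3 (0.078), over a range of 0.0040 to 0.13. Mrps2 fell from 102 ± 5.18 to 92.1 ± 2.43 CPM (-0.15, adjusted p = 0.046), with 95.8 ± 4.49 CPM in the EtOH control (-0.06, adjusted p = 0.47; 0.013 with library totals). Its call ended in 10 of 16 alternatives (adjusted p from 0.0022 to 0.39): library totals (0.39), no filter (0.074), a filter at 1 CPM (0.058), the fit of the 6 libraries compared (0.056), without EtOH control replicate 2 (0.058), without KO-labelled replicate 1 (0.070), 2 (0.051) or 3 (0.12) and, among 4OHT controls, without replicate 1 (0.14) or 2 (0.12). The plot by role list shows that falls were spread over homologs and mitochondria-specific proteins.

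**Figure D3:**
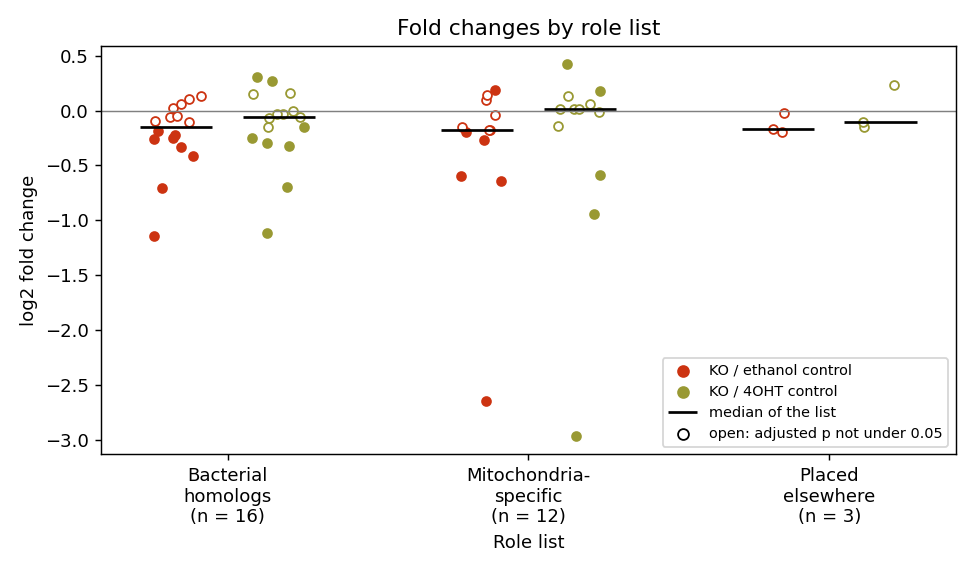
Log2 fold change (y axis) of the KO-labelled libraries against the EtOH control (red) and the 4OHT control (olive) for the 3 role lists (x axis; 16, 12 and 3 genes), with each list's median as a black line and open circles for genes not called. Each list of 12 or more holds a few steep falls, Mrps31 being the lowest, beside many values near 0.

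The 3 genes of the Mrps18 family differed in the size of their log2 fold changes. Mrps18c fell to less than 50% of either control, as given above. Mrps18b (ENSMUSG00000024436.10), a small subunit protein, had 60.0, 58.2 and 54.8 CPM in the EtOH control, 52.3, 54.9 and 46.0 CPM in the KO-labelled libraries and 51.5, 54.4 and 49.4 CPM in the 4OHT control. The KO-labelled libraries overlapped each control, while the controls did not overlap each other. The gene has a near-identical pseudogene copy and an antisense neighbour, and it was not called (log2 fold change -0.17, adjusted p = 0.074, against the EtOH control, and -0.02, adjusted p = 0.87, against the 4OHT control). The latter value was 0.066 with library totals, 0.049 without KO-labelled replicate 3 and 0.016 without 4OHT control replicate 2. Mrps18a (ENSMUSG00000023967.3), the large subunit paralog, had 32.6, 33.8 and 33.6 CPM in the EtOH control, 30.1, 30.1 and 28.8 CPM in the KO-labelled libraries and 30.0, 31.6 and 34.2 CPM in the 4OHT control. Its KO-labelled libraries lay below the EtOH control and overlapped the 4OHT control (-0.17, adjusted p = 0.078, and -0.11, adjusted p = 0.23). Against the EtOH control the replicate block called both (adjusted p = 0.0043 for Mrps18b, range 0.0043 to 0.31 over the alternatives, and 0.026 for Mrps18a, range 0.026 to 0.32), and Mrps18b also without KO-labelled replicate 2 (0.025).

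A further 13 members were called against neither control: Mrps7, Mrps11, Mrps15, Mrps18a, Mrps18b, Mrps21, Mrps22, Mrps25, Mrps26, Mrps28, Mrps30, Mrps33 and Mrps36. Their log2 fold changes ran from -0.20 (Mrps30) to 0.14 (Mrps22) against the EtOH control, and from -0.15 (Mrps30) to 0.23 (Mrps36) against the 4OHT control. Mrps30, the large subunit protein, had 75.93 ± 8.005 CPM in the EtOH control, 66.1 ± 3.99 CPM in the KO-labelled libraries and 73.1 ± 3.05 CPM in the 4OHT control, with adjusted p of 0.054 and 0.13 (± is the SD, n = 3). Against the EtOH control it was called with RLE factors (0.045), no filter (0.018), the replicate block (0.0012), without EtOH control replicate 1 (0.0062), without KO-labelled replicate 2 (0.025) and without 4OHT control replicate 1 (0.048), over a range of 0.0012 to 0.21. Against the 4OHT control it was called with the replicate block (0.011, range 0.011 to 0.50). Mrps22, a mitochondria-specific protein, had 32.7 ± 2.64, 36.1 ± 1.35 and 32.9 ± 1.93 CPM in the same order of groups. Its adjusted p against the EtOH control was 0.17, or 0.042 with library totals and 0.048 with the replicate block (range 0.042 to 0.50). Mrps36, the 2-oxoglutarate dehydrogenase component, had 10.1 ± 0.707, 9.95 ± 1.25 and 8.45 ± 0.786 CPM, with an adjusted p of 0.15 against the 4OHT control, or 0.044 with library totals (range 0.044 to 0.45). Library totals also called Mrps22 higher against the 4OHT control (0.028, range 0.028 to 0.41) and Mrps11 (0.021, range 0.021 to 0.36). Mrps26 had a log2 fold change of -0.15 against the EtOH control (adjusted p = 0.12, range 0.041 to 0.42) and was called under the replicate block (0.041) and without KO-labelled replicate 2 (0.049).

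Per kilobase of merged exon, which allows a rough comparison between genes, the EtOH control means ran from 3.95 CPM per kb for Mrps33 to 37.9 CPM per kb for Mrps7, the counterpart of bacterial S7. The length joins all annotated exons of a gene, so exons of transcripts that these cells may not use lower its level and rank. Mrps24 (34.7), Mrps23 (34.5), Mrps12 (34.0) and Mrps2 (32.8) followed, with SDs of 1.85, 0.470, 0.960 and 1.54, so that these 4 neighbours did not differ beyond their spread. Mrps31 ranked 15 of 31 in the EtOH control at 13.2 CPM per kb, and its 2.11 CPM per kb in the KO-labelled libraries was below the level of every other member in that group. Mrps18c ranked 9 of 31 at 24.8 and was at 11.3 CPM per kb in the KO-labelled libraries. The 14 members that fell against the EtOH control had a median EtOH control level of 13.6 CPM per kb (5.08 to 34.7), and the other 17 of 11.4 (3.95 to 37.9). By this measure falls were found at low and at high levels. Added over the members, the level (mean ± SD, n = 3) was 1522 ± 32.0 CPM in the EtOH control, 1306 ± 58.8 CPM in the KO-labelled libraries and 1447 ± 59.2 CPM in the 4OHT control. Without Mrps31 these sums were 1478 ± 31.2, 1299 ± 57.4 and 1393 ± 56.2 CPM.

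**Figure D4:**
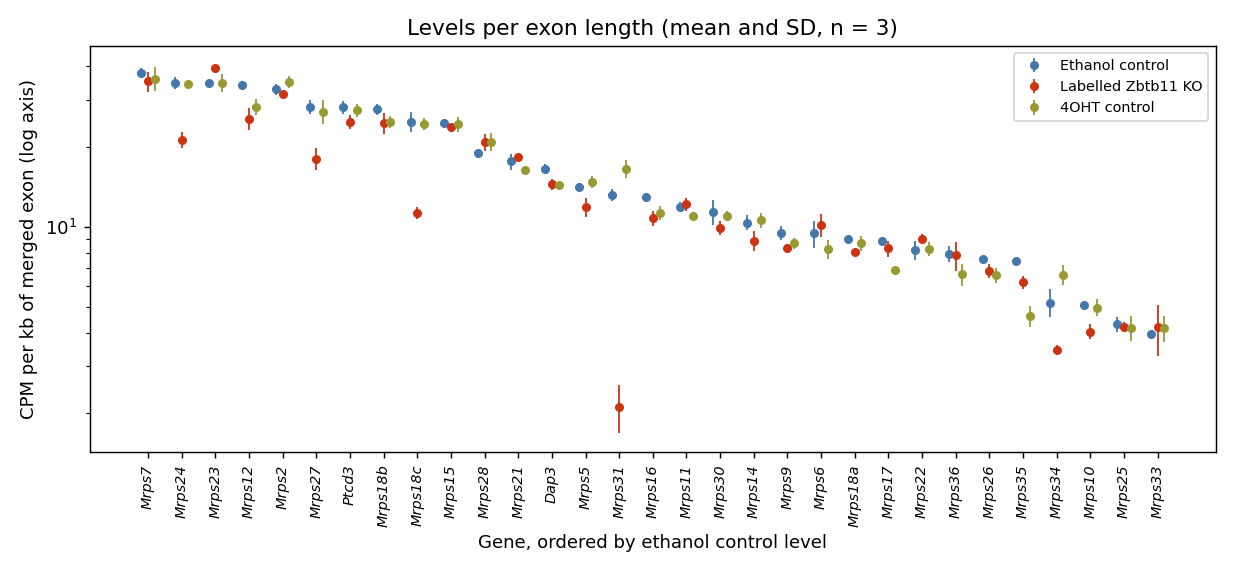
Level of each member in CPM per kilobase of merged exon (y axis, log scale), as mean and SD of 3 libraries in each group, with genes on the x axis in order of the EtOH control mean. Controls span about 1 order of magnitude across members, and the KO-labelled point of Mrps31 is the lowest in the plot at 2.11 CPM per kb.

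Between the controls, which differ in line and in drug, 4 members were lower in the 4OHT control than in the EtOH control (Mrps35, Mrps17, Dap3 and Mrps12) and 2 were higher (Mrps31 and Mrps34), where 8.75% of all genes were called lower and 9.66% higher (18.4% in either direction). The 4 are 12.9% of the members. With the replicate block 9 were lower and 2 higher, where 15.8% of all genes were lower and 17% higher. The 5 added were Mrps9, Mrps16, Mrps18b, Mrps26 and Mrps36 (adjusted p from 0.0085 to 0.043, against 0.055 to 0.18 without the block). Mrps26 was also called lower with library totals (0.045), a filter at 1 CPM (0.045), the fit of the 6 libraries compared (0.044) and without KO-labelled replicate 2 (0.041) or 3 (0.048), over a range of 0.0085 to 0.19. The log2 fold change was -0.69 for Mrps35 (SE 0.07, adjusted p = 5.1e-06) and -0.36 for Mrps17 (SE 0.06, adjusted p = 0.00076). Mrps31 was higher in the 4OHT control by 0.32 (SE 0.09, adjusted p = 0.024) and Mrps34 by 0.34 (SE 0.11, adjusted p = 0.041), the reverse of their direction in the KO-labelled libraries. The call of Mrps31 ended without EtOH control replicate 1 (0.051), 2 (0.060) or 3 (0.093) and without 4OHT control replicate 2 (0.11), over a range of 4.5e-05 to 0.11. That of Mrps34 ended in 8 of 16 alternatives (range 0.0027 to 0.16): DESeq2 (0.058), the fit of the 6 libraries compared (0.052), without EtOH control replicate 1 (0.16) or 3 (0.13), without KO-labelled replicate 1 (0.055) or 2 (0.0505) and, among 4OHT controls, without replicate 2 (0.16) or 3 (0.078). Dap3 was lower (log2 fold change -0.21, adjusted p = 0.013, or 0.062 without EtOH control replicate 3, over a range of 0.00026 to 0.062). Mrps12 was lower too (log2 fold change -0.27, adjusted p = 0.025, or 0.068 and 0.077 without EtOH control replicates 1 and 3 and 0.098 without 4OHT control replicate 1, over a range of 0.0015 to 0.098).

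Promoter sequence was compared because members moved to such different degrees. The RefSeq table (build GRCm38.p6) held windows of 300 bases, 250 before and 50 after a start site, for 27 of the 31 members. The motif CCGGAAG, a site of GABP and other factors of the ETS family, which are known regulators of genes for mitochondrial proteins, was searched on both strands. Only exact matches were counted. It was found for 11 of 27 members (40.7%). By window the share was 11 of 28 (39.3%) for the members, against 8.86% of all 32851 windows, which were not limited to genes expressed here. Among members with an entry the motif was found for 4 of the 11 that fell against the EtOH control and for 7 of the other 16. The palindromic consensus site of the factor NRF1 was found in none of the 28 windows of members and in 0.971% of all windows. Of the 4 members with the largest falls and an entry, Mrps18c and Mrps27 carried an exact match to CCGGAAG and Mrps31 and Mrps24 did not. The windows of Mrps31 and Mrps24 both hold the shorter string CGGAAG, which the search did not count. Whether ETS factors bind any of these windows was not tested. For these 4 members the 250 bases before the start site are printed on the strand of the gene, in lower case with exact matches in capitals. Mrps31 lies at chr8:22411090-22411339 (+ strand), Mrps18c at chr5:100798509-100798758 (+), Mrps24 at chr11:5707702-5707951 (-) and Mrps27 at chr13:99344536-99344785 (+).
Mrps31: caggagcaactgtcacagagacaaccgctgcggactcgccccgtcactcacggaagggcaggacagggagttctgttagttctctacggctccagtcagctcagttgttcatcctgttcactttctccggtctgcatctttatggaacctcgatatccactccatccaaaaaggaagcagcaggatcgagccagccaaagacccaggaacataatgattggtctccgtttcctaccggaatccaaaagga
Mrps18c: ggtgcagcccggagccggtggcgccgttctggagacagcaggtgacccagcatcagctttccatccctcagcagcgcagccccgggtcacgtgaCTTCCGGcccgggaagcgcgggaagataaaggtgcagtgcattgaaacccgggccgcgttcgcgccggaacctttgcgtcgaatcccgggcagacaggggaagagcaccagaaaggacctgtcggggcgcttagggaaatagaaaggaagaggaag
Mrps24: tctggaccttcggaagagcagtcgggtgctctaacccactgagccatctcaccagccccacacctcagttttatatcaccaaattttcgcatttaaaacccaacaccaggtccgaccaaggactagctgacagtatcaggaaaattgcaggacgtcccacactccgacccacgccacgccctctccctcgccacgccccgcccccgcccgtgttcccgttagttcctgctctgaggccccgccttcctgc
Mrps27: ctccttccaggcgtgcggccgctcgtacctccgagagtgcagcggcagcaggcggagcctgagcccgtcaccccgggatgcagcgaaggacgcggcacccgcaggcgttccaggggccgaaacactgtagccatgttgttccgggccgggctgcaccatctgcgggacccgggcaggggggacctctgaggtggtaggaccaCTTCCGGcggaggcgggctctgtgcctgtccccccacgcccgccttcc

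Genes that work with the small subunit were read from lists drawn up beside the members. Of 2 structural proteins with other names, Chchd1 (named after its value was seen) fell against the EtOH control, from 30.6 ± 1.69 to 23.1 ± 1.47 CPM (log2 fold change -0.40, adjusted p = 0.0019), with 25.0 ± 2.22 CPM in the 4OHT control (-0.12, adjusted p = 0.28). Aurkaip1 was not called (63.9 ± 0.362, 60.0 ± 4.93 and 59.4 ± 2.48 CPM in the EtOH control, KO-labelled and 4OHT control groups). Of 9 assembly and 12S rRNA factors, 3 fell and none rose against the EtOH control (median log2 fold change -0.24), with 7 lower and 0 higher by edgeR at an unadjusted p under 0.05. Against the 4OHT control 4 fell and 1 rose. The falls are 33.3% and 44.4% of the 9, where 14.2% and 19.8% of all genes fell and 13.0% and 19.1% rose. Mettl15, which methylates the 12S rRNA, had 4.27, 4.59 and 3.52 CPM in the EtOH control, 1.53, 1.46 and 1.09 CPM in the KO-labelled libraries and 4.50, 3.99 and 4.13 CPM in the 4OHT control (-1.60, SE 0.19, adjusted p = 1.4e-05, and -1.62, SE 0.19, adjusted p = 6.2e-06). Ybey, an endoribonuclease of small subunit maturation, had 9.91, 10.1 and 10.1 CPM, then 4.28, 4.96 and 4.62 CPM, then 11.3, 11.5 and 10.5 CPM in the same order (-1.12, SE 0.11, adjusted p = 2.2e-06, and -1.26, SE 0.11, adjusted p = 2.7e-07). Both were lower in every KO-labelled library than in any control library. The other factors called, named after their values were seen, moved less: Tfb1m (-0.36, adjusted p = 0.0041) fell against the EtOH control, while Mterf4 (-0.31, adjusted p = 0.015) and Nsun4 (-0.45, adjusted p = 0.012) fell and Eral1 (0.23, adjusted p = 0.018) rose against the 4OHT control. Tfb1m stood at -0.17 (adjusted p = 0.12) against the 4OHT control. Mterf4 (-0.24, adjusted p = 0.070), Nsun4 (-0.30, adjusted p = 0.098) and Eral1 (-0.14, adjusted p = 0.16) were not called against the EtOH control. Eral1 was at 46.2, 41.9 and 35.7 CPM in the EtOH control, KO-labelled and 4OHT control groups. Its level in the 4OHT control was called lower than in the EtOH control (-0.37, adjusted p = 0.0018). Against the EtOH control 7 of the 9 fell with the replicate block, DESeq2 called 3 lower and 0 higher, and 5 fell without EtOH control replicate 3 or without KO-labelled replicate 2. For the 4OHT control the block gave 6 lower and 1 higher, while leaving out 4OHT control replicate 1 gave 2 lower and 0 higher and ended the calls of Mterf4 (0.056, range 0.0013 to 0.074), Nsun4 (0.058, range 0.00045 to 0.058) and Eral1 (0.096, range 0.0014 to 0.096). The call of Mterf4 also ended with library totals (0.074), and that of Eral1 without KO-labelled replicate 1 (0.068) or 2 (0.053).

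Of 15 mitochondrial translation factors, 3 fell and 1 rose against the EtOH control (median log2 fold change -0.04, or 0.04 with library totals, under which 2 fell and 2 rose), and 2 fell and 3 rose against the 4OHT control (median 0.02, or 4 and 3 with the replicate block). The falls are 20% and 13.3% of the list, where 14.2% and 19.8% of all genes fell and 13.0% and 19.1% rose. The falls in this list were thus near the shares of all genes. Taco1, an activator of translation of the mt-Co1 mRNA, had 16.7, 18.6 and 18.0 CPM in the EtOH control, 2.04, 1.65 and 1.77 CPM in the KO-labelled libraries and 18.4, 19.8 and 20.1 CPM in the 4OHT control. Its log2 fold change was -3.28 against the EtOH control (SE 0.12, adjusted p = 6.4e-12) and -3.41 against the 4OHT control (SE 0.12, adjusted p = 2.7e-12). The initiation factor Mtif2 rose against both controls (0.15, adjusted p = 0.034, and 0.46, adjusted p = 4.6e-06), but the call against the EtOH control ended in 12 of 16 alternatives (adjusted p from 0.0024 to 0.15), among them DESeq2 (0.079), RLE factors (0.0503), no filter (0.11), the fit of the 6 libraries compared (0.0515) and the loss of any single library other than 4OHT control replicate 1 (0.050 to 0.15). Named likewise after their values were seen, Gfm2 (-0.31, adjusted p = 0.0019) and Lrpprc (-0.15, adjusted p = 0.026) fell against the EtOH control, and against the 4OHT control Guf1 fell (-0.31, adjusted p = 0.0016) and Mtif3 rose (0.27, adjusted p = 0.037). Gfm2 was at 85.2, 68.7 and 69.9 CPM in the EtOH control, KO-labelled and 4OHT control groups. It was not called against the 4OHT control (-0.03, adjusted p = 0.78), which was itself lower than the EtOH control (-0.29, adjusted p = 0.0048). Lrpprc stood at -0.09 against the 4OHT control (adjusted p = 0.13, or 0.032 with the replicate block). Against the EtOH control Guf1 stood at -0.12 (adjusted p = 0.21) and Mtif3 at 0.13 (adjusted p = 0.33). The call of Lrpprc ended with library totals (0.22), no filter (0.065), without EtOH control replicate 1 (0.093) or 2 (0.053) and without KO-labelled replicate 1 (0.074), over a range of 0.0011 to 0.22. That of Mtif3 ended in 9 of 16 alternatives (range 0.0095 to 0.15): no filter (0.088), DESeq2 (0.087), the fit of the 6 libraries compared (0.054), without EtOH control replicate 2 (0.052), without KO-labelled replicate 2 (0.15) or 3 (0.062) and without each 4OHT control replicate (0.060, 0.098 and 0.084). Tufm, the elongation factor that brings tRNA to the ribosome, was at 155 ± 4.04, 161 ± 13.6 and 107 ± 7.18 CPM in the EtOH control, KO-labelled and 4OHT control groups, and was called higher against the 4OHT control alone (0.59, SE 0.07, adjusted p = 3.4e-06). The 12S rRNA, mt-Rnr1, had 20465, 27812 and 19441 CPM in the EtOH control, 23805, 22524 and 34167 CPM in the KO-labelled libraries and 24112, 24292 and 24834 CPM in the 4OHT control. These groups overlapped, and it was not called (log2 fold change 0.25, adjusted p = 0.40, and 0.14, adjusted p = 0.63). With no filter it was called higher against both controls (adjusted p = 8.4e-07 and 0.014, over ranges of 8.4e-07 to 0.90 and 0.014 to 0.73), and without KO-labelled replicate 3 the value against the 4OHT control was -0.079. Ribosomal RNA was depleted before sequencing, so these values also carry what escaped depletion.

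The large subunit offers the nearest comparison. Of 48 proteins named Mrpl, 25 (52.1%) fell against the EtOH control and none rose (median log2 fold change -0.22), with 32 lower and 0 higher by edgeR at an unadjusted p under 0.05. The small subunit members gave 14 of 31 (45.2%) and a median of -0.17. Of all genes tested, 14.2% fell and 13.0% rose. The 31 include Mrps18a and Mrps30, of the large subunit, and Mrps36, of another complex, and none of these 3 was called. Among the homologs and among the mitochondria-specific proteins 50% fell, so the naming rule lowers the share of the 31. For the Mrpl genes DESeq2 called 22 lower and 0 higher, library totals gave 20 and 0 (median -0.15) and the replicate block 33 and 0. Against the 4OHT control, where 19.8% of all genes fell and 19.1% rose, 22 Mrpl genes (45.8%) fell and 3 rose (median -0.16). The small subunit members gave 9 (29.0%) and 4 (median -0.03). The 3 Mrpl genes that rose, named after their values were seen, were Mrpl11 (0.30, adjusted p = 0.012), Mrpl51 (0.40, adjusted p = 5.0e-05) and Mrpl47 (0.17, adjusted p = 0.041). The call of Mrpl47 ended in 12 of 16 alternatives (range 0.0048 to 0.19), among them DESeq2 (0.10), RLE factors (0.056) and the loss of any single library other than KO-labelled replicate 3 (0.052 to 0.19), and that of Mrpl11 without KO-labelled replicate 2 (0.064) or 4OHT control replicate 1 (0.055), over a range of 9.6e-06 to 0.064. With library totals 17 Mrpl genes fell and 4 rose against the 4OHT control (median -0.08), and with the replicate block 28 fell and 4 rose. Falls of more than 1 log2 unit against the EtOH control numbered 9 of 48 and 2 of 31, beside 1.16% of all genes. The difference between the 2 subunits was not tested.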

How the data were processed

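RNA was rRNA-depleted and made into directional libraries, per the labels' protocols. The authors deposited unnormalized read counts, 1 row per gene, under versioned Ensembl identifiers. Per the submitters' processing notes, cutadapt, STAR, HTSeq, edgeR, Bowtie 1.1.2, MACS2 and DiffBind and the build mm9 were used, with no role given. The annotation release and the strand setting of the counting are not given in the sources used here. The 5 closing rows of each file, which name no gene, were left out of totals and tests. Reads assigned to no feature were 26.4% to 33.8% of a file and ambiguous reads 0.78% to 0.91%.

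Of 37310 gene rows, 32620 matched a symbol in GENCODE M21 (GRCm38), which served for names, types, exon lengths and overlaps only. No gene coordinates are given; promoter coordinates are those of the RefSeq table and its build. A blastn 2.17.0 search found a processed pseudogene of at least 95% identity over at least 100 bases for 9 members (Mrps5, Mrps10, Mrps16, Mrps18b, Mrps18c, Mrps21, Mrps26, Mrps33 and Mrps36), whose counts are therefore uncertain.

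All 9 libraries entered 1 fit with edgeR 4.0.16 (R 4.3.3; TMM scaling, filterByExpr by group, robust quasi-likelihood F test, 6 residual degrees of freedom), and members were read from it at a Benjamini-Hochberg adjusted p under 0.05 over all 16224 genes. SE is the absolute log2 fold change over the square root of F. "Rose" and "fell" refer to such calls. The members and lists were chosen with earlier results of these data known. Values in every library are given for members called against both controls, or called with an absolute log2 fold change of at least 0.5 in any comparison, and for Dap3, Ptcd3 and the Mrps18 genes. Alternatives were RLE factors, library totals, no filter, a filter at 1 CPM in 3 libraries, DESeq2 1.42.0, the 6 libraries compared, the replicate block and leaving out each library.

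Replicate numbers are shared by the groups. Deviations from group means correlated at 0.11 to 0.31 for the 9 pairs of libraries with the same number and at -0.23 to -0.02 for the 18 other pairs. Deviations within a group sum to 0, so positive values for the 9 pairs make the others negative on average. The 18 values are therefore not separate evidence. The numbers were taken to pair the libraries because all 9 pairs were positive. The main fit does not use this pairing, so its calls, SE and adjusted p treat the libraries as unpaired. The replicate block is the alternative that uses the pairing. What a shared number stands for is not stated in the labels.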

Additional observations from a re-analysis of the deposited data

How the results depend on the processing

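Of 928 values of the 58 reported member results under the 16 alternatives, 821 kept their direction and their side of the threshold. Mrps31, Mrps18c, Mrps24, Mrps27, Mrps34, Mrps5 and Mrps10 were lower against both controls in every alternative. With library totals as the only scaling, 9 members were lower against the EtOH control and 2 higher, and 7 were higher against the 4OHT control. With the replicate block 2 were higher against the EtOH control and 9 lower in the 4OHT control than in the EtOH control. The block changed no call of a member other than those named with it above. No filter and DESeq2 each gave 0 members higher against the EtOH control (1 at an unadjusted p under 0.05 in either fit). DESeq2 gave 2 higher against the 4OHT control and 1 higher in the 4OHT control than in the EtOH control, where the fit of the 6 libraries compared also gave 1. Leaving out each library gave 10 to 17 lower and 0 to 1 higher against the EtOH control, 7 to 10 lower and 2 to 4 higher against the 4OHT control, and 2 to 5 lower and 0 to 2 higher between the controls. Signs changed for Mrps2 against the EtOH control (0.013) and for Mrps16 (0.014), Mrps9 (0.025) and Mrps18b (0.066) against the 4OHT control with library totals, and without single libraries for Mrps18b (-0.080 to 0.049) and Dap3 (-0.034 to 0.042) against the 4OHT control; none of these was called. The cause was not tested. Depth limits the low members: the SE of the log2 fold change against the EtOH control was 0.15 for Mrps33, at 6.58 CPM, and 0.05 for Dap3.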
